A study of Mus musculus with 5 samples.

Results

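The region is an 8.5 Mb stretch of mouse chromosome 13, chr13:59500001-68000000 in the mm10 build, that carries Gas1, Dapk1, Fbp2, Aopep, Fancc, Ptch1 and clusters of cathepsin and zinc-finger genes. It was examined for contact with the Pik3r1 promoter, the viewpoint (bait) of a 4C-seq experiment at position 101766365 of the same chromosome. All DpnII fragments with a position in the region were taken, which gave 21967 of the 292200 fragments of chromosome 13 and 17 windows of 500 kb. The region begins 33.8 Mb and ends 42.3 Mb from the bait. The region was selected on the number of covered fragments in these 5 libraries, so its coverage is given as a description, and the model's ratios and p-values below support nothing further.

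The 5 libraries were 1 of DP (CD4+/CD8+) thymocytes, 2 of WT skeletal muscle and 2 of GRko skeletal muscle. The thymocytes were of WT genotype, came from the thymus at 4 weeks of age and were sorted with antibodies to CD4 and CD8a. The muscle mice were 10 to 12 weeks old, and all 5 libraries were from C57/Bl6 mice. The GRko muscle is labelled only with the genotype KO, and the promoter or Cre line behind the knockout, or whether it is limited to muscle fibres, is not stated in the labels. GR is read here as the glucocorticoid receptor, and contact counts cannot check a genotype or a cell type against its markers. Every library was cut with DpnII and then Csp6I. Thymocytes and muscle differ in tissue, age and sorting together, and these cannot be told apart. Nothing says whether the replicates of a genotype came from separate mice, so the spread between them may be technical.

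4C-seq ligates chromatin that was crosslinked in the nucleus and then reads out, by PCR from a bait, which fragments had been joined to it. Contacts many megabases away on the same chromosome are sparse, and a single library catches any one fragment rarely, so they are read from how many fragments of a stretch were caught. Long-range contacts of active genes are known to favour other gene-rich, active chromatin over gene-poor or silent chromatin. Pik3r1 encodes the p85 alpha regulatory subunit of phosphoinositide 3-kinase, which acts in insulin signalling in muscle and in receptor signalling in thymocytes. Arrays of zinc-finger genes arose by tandem duplication, and many of their products repress transposable elements through a KRAB domain.

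Raw reads on chromosome 13 ranged from 1317351 in GRko replicate 2 to 8993436 in DP thymocytes. A fragment with at least 1 read is called covered here, and a fragment is called far when it lies more than 1.5 Mb from the bait. Covered far fragments numbered 9363 in DP thymocytes, 6244 and 3022 in WT replicates 1 and 2, and 2791 and 2434 in GRko replicates 1 and 2. Reads were 29 nt after the bait sequence was removed in DP thymocytes and in both replicates 1, and 23 nt in both replicates 2. Read length and replicate number therefore go together.

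Promoters show what a fragment is in these data and how near to a gene's start a contact could be placed. The 250 bases before and 50 after the annotated start of the following genes are printed in the direction of transcription from RefSeq (GRCm38.p6). Gas1 and Fancc name the region, and Cdk20 and Zfp595 were chosen after their values were seen, for covered fragments at their starts. Capitals mark GATC, the site of DpnII. GTAC, the site of Csp6I, is in none of these 4 windows. Both motifs read the same on either strand. Gas1 lies on the minus strand at chr13:60177486-60177785, Fancc on the minus strand at chr13:63431696-63431995, Cdk20 on the plus strand at chr13:64432303-64432602 and Zfp595 on the minus strand at chr13:67332511-67332810.
Gas1: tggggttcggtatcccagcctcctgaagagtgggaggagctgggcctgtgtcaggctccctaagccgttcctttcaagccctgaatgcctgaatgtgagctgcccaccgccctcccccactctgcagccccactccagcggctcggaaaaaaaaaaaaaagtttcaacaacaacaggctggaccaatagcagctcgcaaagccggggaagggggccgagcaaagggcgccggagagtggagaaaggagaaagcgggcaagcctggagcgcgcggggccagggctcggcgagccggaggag
Fancc: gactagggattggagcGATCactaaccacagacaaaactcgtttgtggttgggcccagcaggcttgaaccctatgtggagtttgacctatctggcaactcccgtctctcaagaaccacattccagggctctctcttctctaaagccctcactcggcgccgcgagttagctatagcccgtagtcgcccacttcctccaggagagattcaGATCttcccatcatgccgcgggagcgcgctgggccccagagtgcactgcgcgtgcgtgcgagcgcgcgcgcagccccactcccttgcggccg
Cdk20: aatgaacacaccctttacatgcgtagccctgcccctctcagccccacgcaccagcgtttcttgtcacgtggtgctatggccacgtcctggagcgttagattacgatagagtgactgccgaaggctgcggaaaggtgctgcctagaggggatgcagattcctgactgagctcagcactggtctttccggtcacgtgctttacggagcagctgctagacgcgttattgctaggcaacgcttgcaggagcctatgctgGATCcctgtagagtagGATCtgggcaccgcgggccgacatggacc
Zfp595: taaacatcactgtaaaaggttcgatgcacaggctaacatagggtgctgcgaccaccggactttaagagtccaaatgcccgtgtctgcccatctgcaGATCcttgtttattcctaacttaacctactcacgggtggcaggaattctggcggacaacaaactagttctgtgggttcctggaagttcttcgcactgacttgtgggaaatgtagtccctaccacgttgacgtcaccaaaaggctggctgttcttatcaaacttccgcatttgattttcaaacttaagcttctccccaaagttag

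The Gas1 promoter window holds no GATC, so no fragment border falls in it, whereas Fancc and Cdk20 each hold 2 and Zfp595 holds 1. Across the region 160 such windows of 143 genes were matched, and 54.4% of them held a GATC and 31.9% a GTAC. Over all 32851 promoter windows of the table the shares were 48.0% and 35.8%. The positions in the count files were the midpoints of DpnII fragments: in 301 of 301 neighbouring GATC pairs with 1 file position between them, it lay within 0.5 bp of the middle of the pair. Of 61 fragments that lay whole inside a promoter window of the region, 0 were covered in any library, where 4.63% of all fragments of the region were covered in at least 1. Such fragments cannot exceed the 300 bases of a window, and some repeat the same sequence at different genes. The 4.63% is over fragments of every length, so the shares are not alike and do not show that promoters were avoided. The midpoint of a covered fragment fell in 7 of the 160 windows, in 5 of them in DP thymocytes, 3 in WT replicate 1, 1 in WT replicate 2 and 0 in either GRko library.

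The printed starts of Fancc (63431745) and Zfp595 (67332560) lie inside gene spans that run on to 63497292 and 67342954. On the minus strand they are therefore not the upstream ends of those spans. At Fancc the fragment next to the printed window, bounded by the GATC at 63431976, had its midpoint 377 bp from the start site. It held 2765 reads in WT replicate 1 and 0 in the other libraries. At Cdk20 the fragment bounded by the GATC at 64432574 had its midpoint 104 bp from the start and held 25 reads in DP thymocytes and 211 in WT replicate 1. At Zfp595 a fragment with its midpoint 35 bp from the start held 7 reads in WT replicate 2. Around Gas1 the nearest covered midpoint lay 39422 bp from the start in DP thymocytes, 6623 and 1010 bp in WT replicates 1 and 2, and 11051 and 4396 bp in GRko replicates 1 and 2. Contacts at these 3 starts were thus each seen in 1 or 2 libraries, and the muscle libraries came nearer to Gas1 than the thymocytes did.

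The region took a smaller part of the far contacts than its part of the far fragments in every library. It holds 7.71% of far fragments. It held 4.66% of the covered far fragments in DP thymocytes (436 fragments, 95% Wilson interval 4.25 to 5.10%), 4.44% and 5.16% in WT replicates 1 and 2 (277 and 156 fragments), and 4.08% and 4.40% in GRko replicates 1 and 2 (114 and 107 fragments). The means were 4.80% ± 0.513 for WT muscle against 4.24% ± 0.220 for GRko (SD, n = 2 each). The GRko libraries lay below both WT libraries, with a mean difference of -0.559 percentage points, and the thymocyte value lay between the 2 WT values. Counting fragments with at least 2 reads gave 4.66% in DP thymocytes, 4.20% and 4.69% in the WT and 3.83% and 4.31% in the GRko libraries. With at least 10 reads the shares were 4.50% in DP thymocytes, 4.11% and 3.81% in the WT and 3.61% and 4.60% in the GRko libraries. The genotypes thus overlapped at both of these minimums.

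**Figure D1:**
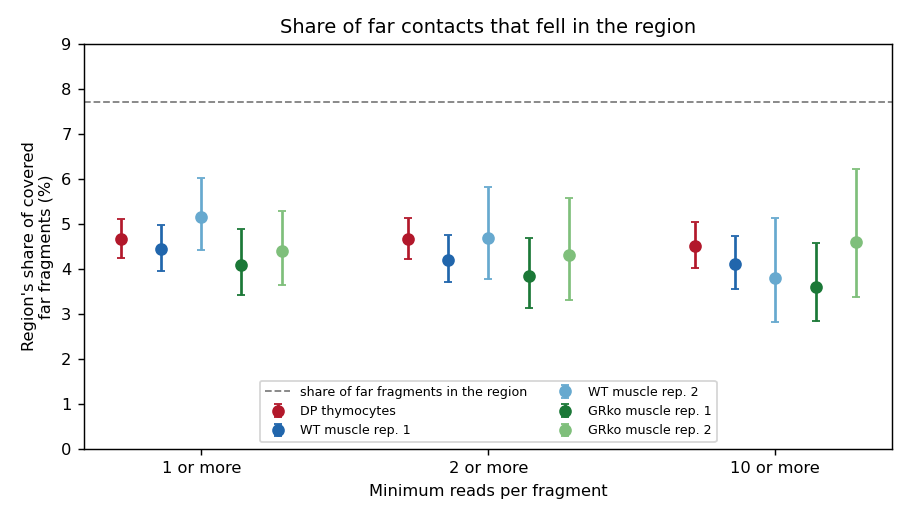
Share of covered far fragments that fell in the region (y axis, %), by the minimum number of reads for a covered fragment (x axis), for each library, with 95% Wilson intervals that cover counting error only. All points lie below the dashed line at 7.71%, the region's share of far fragments.

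As a share of the region's own fragments, 1.98% were covered in DP thymocytes, 1.26% and 0.710% in WT replicates 1 and 2, and 0.519% and 0.487% in GRko replicates 1 and 2. Among all other far fragments the shares were 3.40%, 2.27%, 1.09%, 1.02% and 0.885% in the same order. The stretch of equal length on the side away from the bait, chr13:51000001-59500000, was covered at 2.94%, 2.21%, 1.10%, 0.936% and 0.906%, above the region in every library. The stretch on the side towards the bait, chr13:68000001-76500000, was covered at 1.74%, 1.33%, 0.739%, 0.452% and 0.644%. That nearer stretch lay below the region in DP thymocytes and GRko replicate 1 and above it in the other 3 libraries, so coverage over these stretches did not rise steadily towards the bait.

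Contacts within the region were uneven, with 2 islands covered above the region's own level, 2 sparse stretches and a zinc-finger cluster of intermediate coverage. These 5 stretches were drawn after the window counts were seen and carry no test. The first island, chr13:59500001-61000000, runs from Agtpbp1, whose product trims glutamates from tubulin, over Gas1 to Dapk1, a calcium-dependent kinase of cell death. It holds 17.8% of the region's fragments and held 24.8% of its covered fragments in DP thymocytes, 42.6% and 30.1% in the WT and 36.8% and 32.7% in the GRko libraries. The second island, chr13:62500001-64500000, runs from Fbp2 over Aopep, Fancc and Ptch1 to Cdk20. It holds 22.0% of fragments and held 46.3% of covered fragments in DP thymocytes, 31.4% and 35.9% in the WT and 38.6% and 28.0% in the GRko libraries. By share of covered fragments the thymocyte library was thus the lowest of the 5 on the first island and the highest on the second. Of its own fragments, the first island had 2.77% covered in DP thymocytes, 3.03% and 1.21% in the WT and 1.08% and 0.897% in GRko. The second had 4.18%, 1.80%, 1.16%, 0.910% and 0.621% in the same order, and other far fragments 3.40%, 2.27%, 1.09%, 1.02% and 0.885%. Against those, the first island was lower in DP thymocytes, and the second in WT replicate 1 and both GRko libraries.

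The sparse stretches were the cathepsin cluster with Zfp808 and the stretch from Cntnap3 to Gm10324. The first, chr13:61000001-62500000, holds 19.3% of fragments but held 3.90% of covered fragments in DP thymocytes, 6.50% and 12.8% in the WT and 5.26% and 7.48% in the GRko libraries. The second, chr13:64500001-66500000, holds 23.5% and held 7.34%, 8.66%, 5.77%, 3.51% and 15.0% in the same order. The zinc-finger cluster around Uqcrb and Rsl1, chr13:66500001-68000000, holds 17.4% of fragments. It held 17.7% of covered fragments in DP thymocytes, 10.8% and 15.4% in the WT and 15.8% and 16.8% in the GRko libraries. Many of these fragments in WT replicate 2 had a single read. Of its 20 in the cathepsin stretch 4 had at least 2 reads and 0 at least 10. Of its 24 in the zinc-finger cluster 9 had at least 2 and 1 at least 10.

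**Figure D2:**
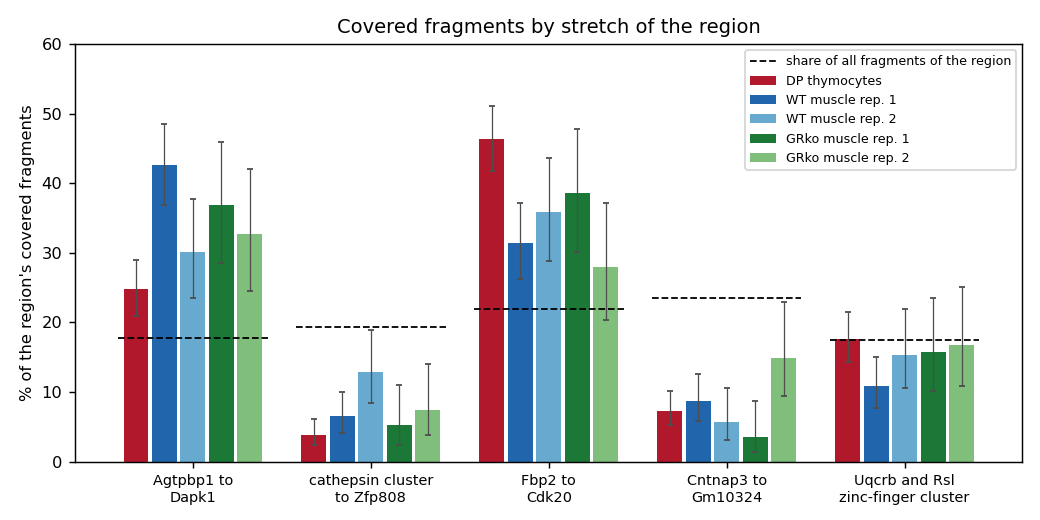
Share of the region's covered fragments in each of 5 stretches (y axis, %), for each library, with 95% Wilson intervals; dashed lines give the stretch's share of all the region's fragments. Both sparse stretches lie below their dashed line in every library, and the thymocyte bar is the lowest at Agtpbp1 to Dapk1 and the highest at Fbp2 to Cdk20.

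Summed over the 5 libraries, the most covered 500 kb windows start at 59500001 (Agtpbp1, Naa35 and Golm1), 63000001 (Aopep and Fancc) and 63500001 (Ptch1 and Ercc6l2). DP thymocytes, with the most covered fragments, weigh most in that sum. In WT replicate 1 and GRko replicate 2 the fullest window was that of Gas1 at 60000001, with 42 and 15. The window at 59500001 held 45 covered fragments in DP thymocytes, 41 and 23 in the WT and 20 and 14 in the GRko libraries. The window at 63500001 held 65, 18, 18, 11 and 10, of which Ptch1, the Hedgehog receptor, took 14, 1, 6, 3 and 3. The median far window held 29, 20, 11, 10 and 9, so both lay above the typical far window in every library but WT replicate 1 at 63500001. The window of Aopep and Fancc at 63000001, with 62, 34, 17, 8 and 6, lay above it in thymocytes and WT muscle and below it in both GRko libraries. The window of Fbp2 at 62500001 held 26, 13, 3, 5 and 5, below the typical far window in every library. By the same sum the least covered start at 65500001 (1, 2, 1, 0 and 0 covered fragments), 66000001 (1, 1, 0, 2 and 1) and 62000001 (5, 4, 4, 3 and 2). None of these 3 holds a gene of the named list, and the 4 protein-coding genes with midpoints in the window at 65500001 are all predicted Gm genes.

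**Figure D3:**
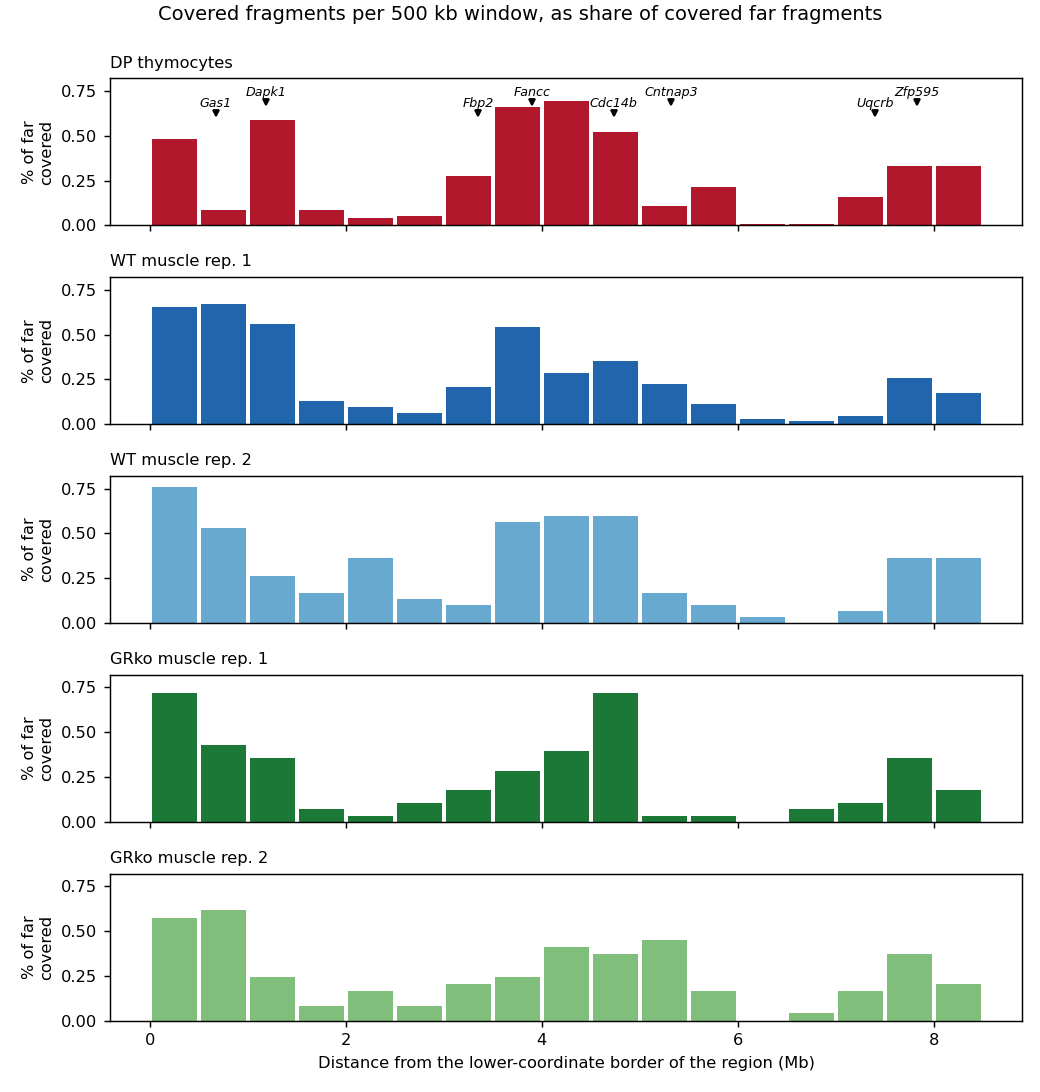
Share of covered far fragments in each 500 kb window of the region (y axis, %), against distance from the region's lower-coordinate border (x axis, Mb), with 1 panel for each library and gene positions marked in the first. The window with Gas1 is low in DP thymocytes (0.0854%) and between 0.430% and 0.673% in the 4 muscle libraries.

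Among the region's tested windows, that of Gas1 had the largest ratio between thymocytes and WT muscle in size. The exception among the 12 alternatives on the same windows was leaving out WT replicate 1, where the window at 61500001 stood at -3.01 (edgeR adjusted p 0.188) and that of Gas1 at -2.59. Gas1 encodes a membrane-anchored protein that arrests growth and binds Hedgehog ligands alongside Ptch1, and it is the only protein-coding gene with its midpoint in the window, chr13:60000001-60500000. The window held 8 covered fragments in DP thymocytes, 42 and 16 in WT replicates 1 and 2, and 12 and 15 in GRko replicates 1 and 2. As shares of covered far fragments these were 0.0854% in thymocytes (Wilson bounds 0.0433 and 0.169%, at 95%), against 0.673% and 0.529% for WT, and 0.430% and 0.616% in GRko muscle. The thymocyte share lay below all 4 muscle shares, which were 7.87, 6.20, 5.03 and 7.21 times as large in that order. With 1 thymocyte library this position is common: 37.8% of all far windows lay below all 4 muscle libraries in thymocytes and 24.3% above. With at least 10 reads the fragments numbered 5 in thymocytes, 28 and 8 in the WT and 7 and 7 in the GRko libraries.

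Smaller steps held few covered fragments each. In steps of 100 kb, thymocytes had 1, 1, 3, 0 and 3 covered fragments across the Gas1 window, where WT replicate 1 had 9, 5, 10, 10 and 8 and WT replicate 2 had 5, 3, 1, 2 and 5. GRko replicate 1 had 3, 2, 1, 3 and 3 and GRko replicate 2 had 2, 3, 3, 4 and 3. These are raw counts from libraries that differ in covered far fragments. In the step at 60200001 the thymocyte count exceeded those of WT replicate 2 and GRko replicate 1. At 60400001 it equalled those of both GRko libraries. Thymocytes had 9363 covered far fragments, against 3022 in WT replicate 2 and 2791 and 2434 in the GRko libraries. These raw counts are therefore not higher or equal shares. The step before it, chr13:59900001-60000000, held 2 in thymocytes and 3 to 6 in the muscle libraries. Over Dapk1 the order turned: the step at chr13:60600001-60700000 held 22 covered fragments in thymocytes, 13 and 2 in the WT and 2 and 4 in the GRko libraries. At the other end of the first island, the step at chr13:59500001-59600000 held 19, 10, 5, 3 and 3. The gene body of Gas1 spans only 3 fragment midpoints and had 0 covered in any library, so the counts are of its surroundings.

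For the comparison of thymocytes with WT muscle, edgeR's quasi-likelihood test was fitted to covered fragments per window over all far windows of all 5 libraries. Since there is 1 thymocyte library, it is assumed to vary as the muscle libraries do. Over the far windows 8.33% were called after Benjamini-Hochberg adjustment (19 of 228, 5 higher and 14 lower in thymocytes, which is 2.19% and 6.14%). TMM scaling of the libraries turned that split to 0 higher and 8 lower, and all covered chromosome 13 fragments as library size turned it to 12 higher and 13 lower. In the region 15 of the 17 windows passed the filter on low counts and 1 was called, the Gas1 window, with a log2 ratio of -2.82 ± 0.46 (SE) and an adjusted p of 0.000236 by edgeR. DESeq2 gave -2.59 with an adjusted p of 0.289 and called 0 far windows (16 had an unadjusted p under 0.05). In windows of 250 kb both parts of the Gas1 window were called, at -2.75 ± 0.61 and -2.84 ± 0.60 with edgeR adjusted p of 0.00092 and 0.000367. A window of 1 Mb that joined the Gas1 window to the neighbouring Dapk1 window was at -0.66 ± 0.28 with an edgeR adjusted p of 0.106.

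Of the region's 15 tested windows, 9 had a log2 ratio above 0 and 6 below. Their median was 0.24, against -0.20 over all far windows. TMM scaling moved the median of all far windows to -0.01 and that of the region to 0.43. The Ptch1 window at 63500001 had a ratio of 0.79 ± 0.36 with an edgeR adjusted p of 0.135, and it passed the threshold when only fragments with at least 2 reads or at least 10 reads were counted, at 1.12 and 1.66, and without WT replicate 2, at 1.26. The window at 66500001 was called only with at least 2 reads, at 2.47. The window at 61500001 had -2.18 with an edgeR adjusted p of 0.130, and it was called without GRko replicate 1 or without GRko replicate 2, at -2.12 and -2.13. The window at 61500001 held 4 covered fragments in DP thymocytes, 6 and 11 in the WT and 1 and 4 in the GRko libraries. With at least 2 reads the 11 in WT replicate 2 fell to 3, and with at least 10 to 0. Without WT replicate 2 the ratio was -1.13. Thymocytes lay above all 4 muscle libraries in 5 of the 17 windows, where 24.3% of all far windows did so. They lay below all 4 in 3 windows, where 37.8% did.

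For GRko against WT muscle, edgeR's quasi-likelihood test over the 4 muscle libraries called 0% of far windows (0 of 227, with 7 at an unadjusted p under 0.05; DESeq2 also called 0, with 0 under 0.05). In the region 7 of the 15 tested windows had a log2 ratio above 0 and 8 below, with a median of -0.11 against 0.03 over all far windows. The window of Aopep and Fancc at 63000001 had the smallest unadjusted p, 0.0173, with a ratio of -1.03 ± 0.41 and an edgeR adjusted p of 0.994. It held 34 and 17 covered fragments in the WT and 8 and 6 in the GRko libraries, and 62 in DP thymocytes. GRko shares lay below both WT shares in 3 of the 17 windows, where 12.6% of far windows did so, and above both in 2, where 15.7% did.

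The tests could miss sizeable changes. On simulated counts with the libraries' own means and number, the GRko comparison recovered 6% of windows changed 2-fold and 64.8% of those changed 4-fold. The thymocyte comparison recovered 4.75% and 71%. Changed windows were drawn from all tested far windows, so these rates are not for the region's windows alone. Those held fewer covered fragments, with medians of 20 in DP thymocytes, 13 and 8 in the WT and 5 and 5 in GRko. Over all far windows the medians were 29, 20, 11, 10 and 9.

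**Figure D4:**
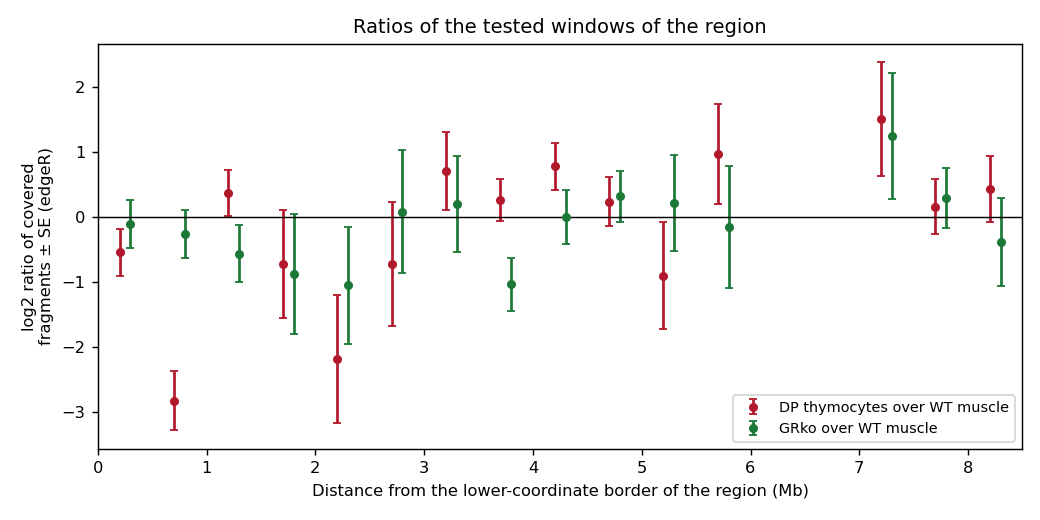
Log2 ratio of covered fragments with its standard error from edgeR (y axis) in the 15 tested windows of the region, against distance from the region's lower-coordinate border (x axis, Mb), for DP thymocytes over WT muscle and GRko over WT muscle. The Gas1 window lies at -2.82 in thymocytes, and no GRko window was called.

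Among the 22 genes of the named list, 19 had at least 1 covered fragment in some library, and the 3 without were Gas1, Ctla2a and Ctla2b, short genes with 3 or 4 fragments each. The genes differ in their number of fragments, so counts are not compared between genes. In the first island, Dapk1 (424 fragments) held 32 covered fragments in DP thymocytes, 20 and 4 in the WT and 3 and 4 in the GRko libraries. Naa35, a subunit of the NatC N-terminal acetyltransferase, held 11, 6, 4, 3 and 1 in the same order. Tut7, which adds uridines to RNA ends, held 2, 7, 1, 3 and 0. Agtpbp1 held 9, 6, 2, 3 and 2.

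In the second island, Aopep, an aminopeptidase gene of 834 fragments, held 47 covered fragments in thymocytes, 31 and 16 in the WT and 8 and 4 in the GRko libraries. Fancc, a member of the Fanconi anaemia core complex of DNA repair (486 fragments), held 23, 6, 2, 2 and 3. Ercc6l2, a helicase-like gene linked to DNA repair, held 15, 3, 4, 2 and 2, and Cdc14b, a phosphatase of the cell cycle, held 11, 5, 2, 4 and 2. Fbp2, the muscle form of fructose-1,6-bisphosphatase, held 1, 0, 1, 1 and 0 of 50 fragments. Its neighbour Fbp1, the form of liver gluconeogenesis, held 2, 3, 0, 1 and 1 of 56. Both genes held at most 3 covered fragments in a library.

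Fragments inside gene spans were covered more often than those outside in every library, beyond counting error in DP thymocytes and WT muscle only. Gene spans hold 47.2% of the region's fragments and held 66.7% of its covered fragments in DP thymocytes, 59.9% and 56.4% in the WT and 55.3% and 49.5% in the GRko libraries. The Wilson bounds of GRko replicate 1 (46.1 and 64.1%) and GRko replicate 2 (40.2 and 58.9%) include 47.2%, and those of the other libraries lie above it. All far fragments had similar shares, with 44.1% in genes and 62.2%, 55.3%, 52.4%, 55.4% and 49.1% of covered ones. The GRko mean was 52.4% ± 4.05 and the WT mean 58.2% ± 2.49 (SD, n = 2 each), a difference of -5.77 percentage points. The exact p, two-sided over permutations of the 4 libraries, was 0.333, below which this design cannot go, and adjustment over both shares tested left it at 0.333.

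The zinc-finger class was taken by symbol, as the 30 genes (29 protein-coding) named Zfp or Zkscan. It leaves out Rsl1, Rslcan18 and any zinc-finger gene with a Gm or Rik name, which were not looked for. A promoter fragment of Gm17353, in the sparse window at 65500001, has the same sequence as 1 of Zfp640. The values below therefore hold for the named genes only. Of these 30 genes, 25 had a covered fragment in some library and 20 in at least 2. The most were in Zfp595 (6, 0, 2, 1 and 0 in the order above), Zfp369 (2, 2, 1, 1 and 0) and Zfp459 (3, 2, 1, 0 and 0). The class holds 7.49% of the region's fragments and held 9.63% of covered fragments in DP thymocytes, 7.22% and 7.05% in the WT and 6.14% and 4.67% in the GRko libraries. The GRko minus WT difference was -1.73 percentage points (5.41% ± 1.04 against 7.14% ± 0.119, SD, n = 2 each), with the same exact p of 0.333. The difference turned to 0.902 points when only fragments with at least 2 reads were counted and to 4.10 with at least 10.

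Few fragments in pseudogene spans were covered, and cathepsin spans hold too few fragments to place in the muscle libraries. The 13 cathepsin genes, of which several in the cluster are known from placenta, held 0, 2, 1, 1 and 0 covered fragments of 228, and 10 of the 13 genes had 0 in all libraries. In WT replicates 1 and 2 and GRko replicate 1 that is 0.877%, 0.439% and 0.439% of cathepsin fragments, near the 1.27%, 0.713% and 0.520% of the region's other fragments. The 0 in DP thymocytes stood against 2.01% of the other fragments, and that in GRko replicate 2 against 0.492%. In DP thymocytes the upper Wilson bound, 0.873%, lies below the class's 1.04% of the region's fragments. Ctsl in the second island held 1 in each WT library, and Ctsll3 in the first island the 1 in GRko replicate 1. Pseudogene spans held 2, 4, 2, 1 and 1 of 1384 fragments, or 0.145%, 0.289%, 0.145%, 0.0723% and 0.0723%, where the region's other fragments were covered at 2.11%, 1.33%, 0.748%, 0.549% and 0.515%. Of the region's 89 pseudogenes, 27 and 34 have midpoints in the 2 sparse stretches. All fragments of those stretches were covered at 0.400% and 0.620% in DP thymocytes and 0.424% and 0.465% in WT replicate 1. Annotation as a pseudogene and place in the region were not told apart. Pseudogene and cathepsin spans hold duplicated sequence, on which reads as short as 23 or 29 nt can lack a unique position. The part of read mapping in the low counts was not tested. Of the region's fragments 28.7% lay within 10 kb of an annotated start, as did 34.4%, 28.5%, 28.2%, 37.7% and 27.1% of covered ones. The Wilson bounds of DP thymocytes (30.1 and 39.0%) and of GRko replicate 1 (29.4 and 46.9%) lie above 28.7%, and those of the other libraries include it. Over all far fragments 18.4% lay that near a start, as did 26.9%, 21.5%, 21.0%, 21.2% and 20.5% of covered ones.

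**Figure D5:**
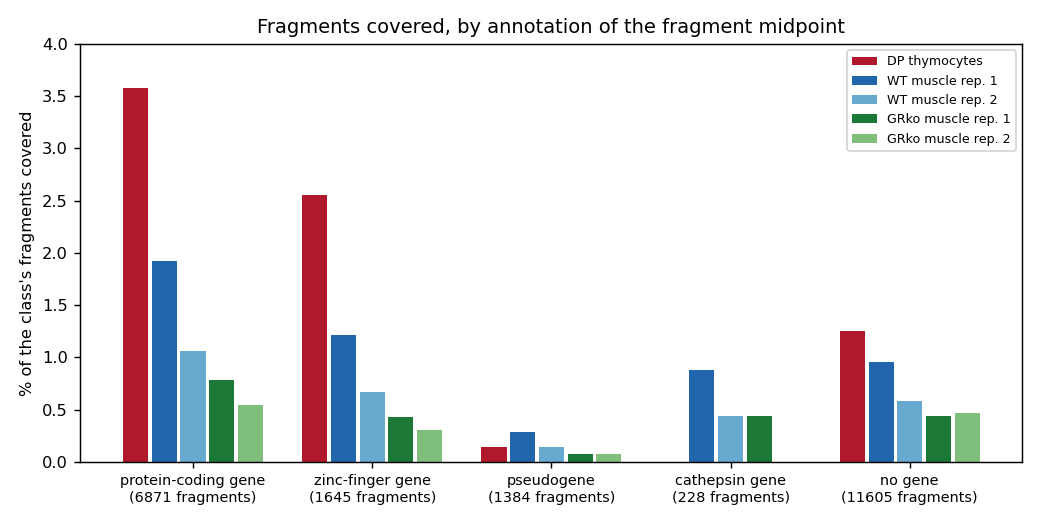
Share of the fragments of each class that were covered (y axis, %), by the annotation of the fragment's midpoint (x axis, with the number of fragments), for each library. Pseudogene fragments lie below protein-coding, zinc-finger and gene-free fragments in every library, while the cathepsin bars stand for at most 2 fragments in a library. Most pseudogenes lie in the sparse stretches.

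Most covered fragments were caught in 1 library. Of 1016 fragments of the region covered in any library, 950 were covered in 1, 58 in 2, 8 in 3 and 0 in 4 or 5. Libraries stood apart in reads per covered fragment: the median was 29.5 in DP thymocytes, 20 and 1 in WT replicates 1 and 2, and 15 and 2 in GRko replicates 1 and 2. Fragments with a single read made up 10.1%, 14.1%, 50.6%, 19.3% and 49.5% of the region's covered fragments. Of the 66 shared fragments, 35 had a library with a single read, and WT replicate 2 and GRko replicate 2 shared 14, 9.0% and 13.1% of theirs, of which 11 had a lower count of 1. Whether such single reads came from another library's product was not tested.

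Reads were concentrated on few fragments. The 10 fragments of most reads held 22.0% of the region's reads in DP thymocytes, 33.3% and 85.9% in the WT and 68.4% and 76.8% in the GRko libraries. The fragment of most reads lay at 59916935 in WT replicate 2 (12917 reads, 21.4% of the region's reads, with 1 read in each GRko library), at 60357948 in WT replicate 1 (4604 reads, none elsewhere) and at 63599216 in DP thymocytes (4241 reads, none elsewhere). In GRko muscle it lay at 63794565 in replicate 1 (6023 reads, with 477 in DP thymocytes) and at 64739916 in Cntnap3 in replicate 2 (2740 reads). By reads the region's share of far contacts was 4.20% in DP thymocytes, 3.80% and 6.74% in the WT and 3.98% and 2.17% in the GRko libraries, so the order of libraries by reads differed from that by covered fragments.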

How the data were processed

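4C-seq with DpnII and Csp6I was run from a bait at Pik3r1, per the labels. The deposited tables give raw counts of reads on each DpnII fragment of chromosome 13, with no normalization, per the file headers. The submitters' processing notes name bcl2fastq, Bowtie 1.0.0 and mm10. The rule that assigned reads to fragments is not given in the sources. In some files 3 fragments within 1247 bp of the bait are missing, with 0 in the region. The region, its windows and the gene lists were chosen with earlier results of these data known.

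Covered far fragments were counted per 500 kb window. Windows with at least 10 covered fragments over the libraries and coverage in at least 2 of them entered the quasi-likelihood test of edgeR 4.0.16 (R 4.3.3), with covered far fragments as library size and Benjamini-Hochberg adjustment at 0.05. DESeq2 1.42.0, TMM, other minimum reads and window sizes, a replicate block and leaving out each library were alternatives. Scripts were tested on simulated data. Shares were compared by exact permutation tests (scipy 1.17.1). Wilson intervals (95%) cover counting error only, since no molecular identifiers mark PCR copies. Genes, start sites and promoters came from RefSeq (GRCm38.p6, the coordinates of mm10). Zinc-finger and cathepsin genes were taken by symbol. Named were the 3 most and 3 least covered windows, those called or holding Gas1, Fbp2, Aopep and Fancc, a list of 22 genes, the 3 zinc-finger genes of most covered fragments, and each library's fragment of most reads. Windows at unadjusted p under 0.05, Ptch1 and the steps of 100 kb were added after their values were seen.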

Additional observations from a re-analysis of the deposited data

How the results depend on the processing

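The 500 kb window of Gas1 was lower in thymocytes under all 12 alternatives that kept it, from -3.02 to -2.59, and called in all but DESeq2 (-2.59, adjusted p 0.289). Between thymocytes and WT muscle 19 far windows were called, or 8.33% of those tested. This moved to 8 with TMM (3.51%), 0 with DESeq2 and 12 without the filter (5.22%). It moved to 55 with at least 2 reads (24.7%) and 39 with at least 10 reads (18.2%). The replicate block gave 33 (14.5%), and all 4 muscle libraries as control gave 42 (18.4%). Windows of 250 kb gave 39 of 436 (8.94%), a share near the main one, and windows of 1 Mb 15 of 116 (12.9%). Leaving out 1 library gave 12 (WT replicate 1), 14 (WT replicate 2), 50 (GRko replicate 1) and 49 (GRko replicate 2). The GRko comparison called 0 windows in all 13 alternatives, the replicate block included.

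The difference of GRko from WT in the region's share, -0.559 points, moved to 0.146 with at least 10 reads and to -2.19 by reads, and ranged from -0.922 to -0.196 with 1 library left out. That of thymocytes, -0.143, moved to 0.543 with at least 10 reads, -1.07 by reads and 0.472 when only far fragments on the region's side of the bait were counted, and ranged from -0.506 to 0.220. In gene spans leaving out 1 library gave -8.64 to -2.91. In zinc-finger spans it gave -2.46 to -0.995, and the sign turned with at least 2 reads (0.902) and at least 10 (4.10). Same-numbered muscle libraries deviated together over 227 windows (r = 0.33), but with 2 pairs the numbers are not shown to pair them. For gene and zinc-finger spans the block is the mean of the differences within number. With 2 complete pairs it equals the plain differences (-5.77 and -1.73) by construction, so it could not move them.

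Limits are the single thymocyte library, 2 libraries per genotype, and 23 or 29 nt reads in duplicated sequence.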
